A study of Mus musculus with 4 samples.

Results

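The region around Lgr6, Elf3 and Lad1 on mouse chromosome 1 carried 32 Gata6 peaks of a deposited overlap list, which holds 12105 further peaks in all, 879 of them on the same chromosome. Its members are the listed peaks whose midpoint lies between 136.7 and 138.0 Mb of build mm9. The region was chosen by its high count of listed peaks, so that count and the spacing that follows from it are descriptions and were not tested. The peaks came from ChIP-seq, the sequencing of DNA pulled down with an antibody, on primary keratinocytes from mouse dorsal skin (strain background C57BL6/CBA). The design held 2 libraries made with different Gata6 antibodies, 1 control library made with a Flag antibody and 1 input library. Cells of all 4 libraries carried the K14deltaNLef1 transgene, written K14deltaNLef1N for the first Gata6 library, and were infected with a lentivirus that overexpresses Gata6. The K14 promoter drives the transgene in basal keratinocytes, and there was no library from cells without the transgene or without the Gata6 virus. The Flag and input libraries have no value in the list, which holds no value per library, so conditions and replicates could not be compared and depth per library is unknown. Keratinocyte identity could not be checked against marker genes, since a peak list holds no expression.

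Gata6 is a zinc-finger transcription factor that binds DNA at GATA sequences, and in skin it is known for its role in the upper hair follicle and the sebaceous duct. Lgr6 encodes a receptor for R-spondins, secreted proteins that raise Wnt signalling, and marks stem cells of the hair follicle isthmus and the sebaceous gland. Elf3 encodes an ETS-family transcription factor of epithelial cells that rises during terminal differentiation of keratinocytes. Lad1 encodes ladinin-1, a protein of the anchoring filaments that hold basal keratinocytes to the basement membrane. In the RefSeq gene table of the later build GRCm38.p6 these genes follow each other on chromosome 1 in the order Lgr6, Elf3 and Lad1. Between Lgr6 and Elf3 that table places 3 protein-coding genes (Ptpn7, Arl8a and Gpr37l1), and between Elf3 and Lad1 it places 9 (Rnpep, Timm17a, Lmod1, Shisa4, Ipo9, Nav1, Csrp1, Phlda3 and Tnni1). The next genes beyond Lad1 are Tnnt2, which encodes cardiac troponin T, and Pkp1, which encodes the desmosomal protein plakophilin 1. Below Lgr6 lie Ube2t and Ppp1r12b.

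The promoter windows of the 3 genes are shown because they are the sequences in which a GATA motif can be read beside each gene. Each runs 5′ to 3′ on the gene's strand, from 250 bases before to 50 bases after its start, and is taken from RefSeq on build GRCm38.p6, whose positions must not be set against the mm9 positions of the peaks. Lgr6 is chr1:135105227-135105526 on the minus strand, Elf3 is chr1:135258423-135258722 on the minus strand, and Lad1 is chr1:135818348-135818647 on the plus strand. Capitals mark the motif AGATAA or its reverse complement TTATCT.
Lgr6: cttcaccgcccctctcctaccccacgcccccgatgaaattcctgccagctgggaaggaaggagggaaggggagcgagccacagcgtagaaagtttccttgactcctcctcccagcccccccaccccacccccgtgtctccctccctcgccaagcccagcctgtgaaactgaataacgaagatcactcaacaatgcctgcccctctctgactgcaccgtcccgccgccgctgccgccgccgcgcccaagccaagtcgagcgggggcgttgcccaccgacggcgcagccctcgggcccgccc
Elf3: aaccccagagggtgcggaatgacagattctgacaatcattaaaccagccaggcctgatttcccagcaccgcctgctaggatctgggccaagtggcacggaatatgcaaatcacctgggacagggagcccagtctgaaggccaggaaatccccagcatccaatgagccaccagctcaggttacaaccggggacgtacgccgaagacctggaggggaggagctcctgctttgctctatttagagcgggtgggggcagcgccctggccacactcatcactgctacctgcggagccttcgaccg
Lad1: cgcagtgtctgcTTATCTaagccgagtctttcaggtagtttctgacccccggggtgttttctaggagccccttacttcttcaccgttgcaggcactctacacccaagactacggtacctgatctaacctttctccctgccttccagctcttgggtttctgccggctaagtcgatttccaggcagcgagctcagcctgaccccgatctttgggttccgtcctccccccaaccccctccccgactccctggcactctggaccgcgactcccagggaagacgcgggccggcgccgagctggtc
The motif stood in 1 of the 3 windows. Lad1 had TTATCT with its first base at position -238, counted from the gene's start, which is the match AGATAA on the other strand. Neither strand of the Lgr6 or the Elf3 window held AGATAA or the shorter GATAA, which is contained in it. Among 32851 promoter windows of the same length in the table, AGATAA or TTATCT stood in 11.2% and GATAA or TTATC in 25.4%. The windows of the 3 genes had a G and C content of 67.7% for Lgr6, 59.0% for Elf3 and 60.3% for Lad1, against a median of 52.7% (interquartile range 45.7 to 61.7%) over all windows. No mm9 sequence was used here, so whether these letters lie under a peak was not tested.

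Peaks were unevenly laid out across the locus, with few at Lgr6 and most from about 100 kb below Lad1 upwards. Gene positions in mm9 are known here only approximately: Lgr6 at about 136.88 to 137.0 Mb, Elf3 at about 137.15 Mb and Lad1 at about 137.7 Mb, the last given to the nearest 0.1 Mb. No peak lay in the 180 kb between the lower limit and Lgr6, and 1 peak lay in the 120 kb of Lgr6. The 100 kb from Lgr6 to the band of 50 kb on each side of the Elf3 position held 2 peaks, and that band itself held 4. Between the Elf3 band and a like band around Lad1, 450 kb held 8 peaks, or 1.78 per 100 kb. The Lad1 band held 9 peaks in 100 kb, and the remaining 250 kb above it held 8, or 3.20 per 100 kb. Low counts here are low for this region only. Apart from the empty stretch below Lgr6, each part was denser than the rest of chromosome 1, which had 4.57 peaks per Mb.

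**Figure D1:**
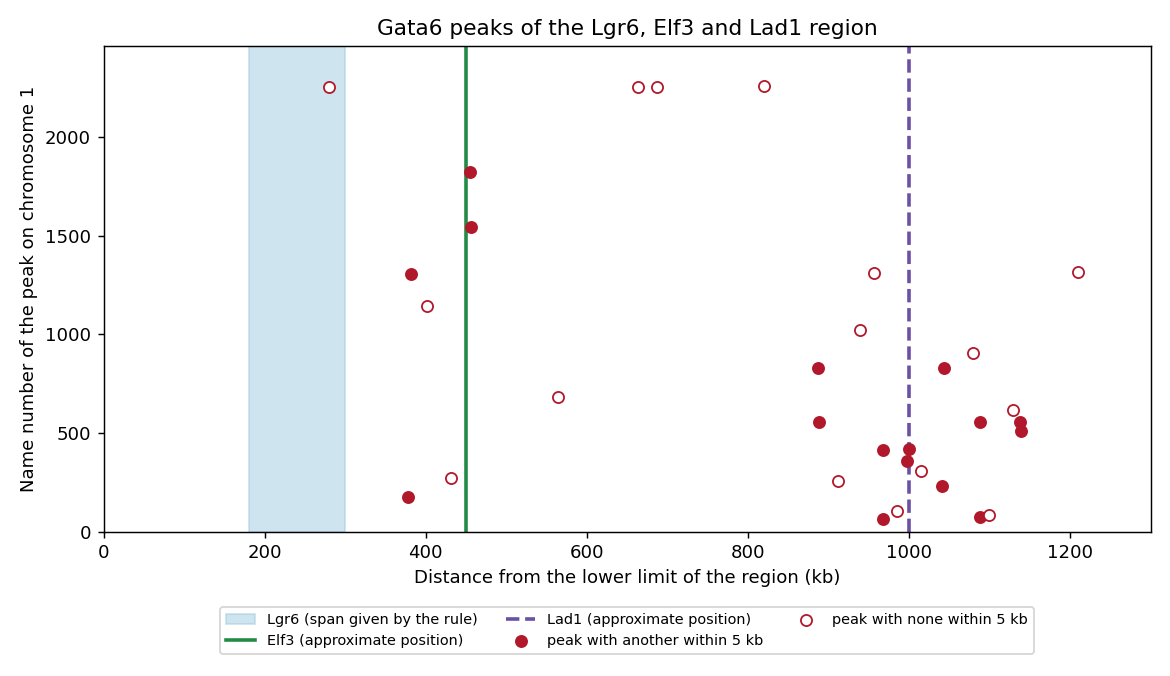
Each point is 1 of the 32 Gata6 peaks, with its distance from the lower limit of the region in kb on the horizontal axis and its name number on the vertical axis; filled points have another peak within 5 kb, open points have none, and the shaded span and lines give the approximate places of Lgr6, Elf3 and Lad1. A single peak, with number 2253, lies in Lgr6, and 17 of the 32 lie in the Lad1 band or above it.

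Lgr6 had the single peak from 136980152 to 136980265, 114 bp wide. It is the first peak after a stretch of 556.7 kb without a listed peak, since the peak just outside the region lay from 136423433 to 136423541, 276.5 kb below the limit. The next listed peak, from 137077593 to 137077751, lay 97.5 kb further up, beyond the approximate end of Lgr6. Lgr6 was thus bordered on both sides by sequence with no listed peak. On the rest of chromosome 1, 456 of 877 distances between neighbours were over 50 kb, so empty stretches of that size are not particular to Lgr6.

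Elf3 had a close pair of peaks beside its approximate position. They ran from 137155149 to 137155282 and from 137155714 to 137155855, with midpoints 0.569 kb apart, and lay 5.21 and 5.79 kb above 137.15 Mb. Since that position is rounded, whether they overlap the gene or its promoter cannot be told. Below them, single peaks lay from 137131475 to 137131634 and from 137101377 to 137101518, with midpoints at -18.45 and -48.55 kb from the same position. Further down, towards Lgr6, a pair with midpoints 3.34 kb apart ran from 137077593 to 137081043. Above the Elf3 pair no peak was listed for 108.7 kb.

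The stretch from Elf3 to Lad1 was sparse in its lower part compared with the rest of the region. Peaks from 137264395 to 137264557, from 137363695 to 137363749, from 137387193 to 137387357 and from 137519875 to 137520034 were separated by 99.2, 23.6 and 132.7 kb. The last of these distances was the longest inside the region. From there the spacing narrowed: a pair with midpoints 1.10 kb apart ran from 137587072 to 137588321, and single peaks followed from 137611868 to 137612025 and from 137639397 to 137639509.

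Lad1 lay in the fullest part. The nearest peaks to its approximate position were a pair from 137697067 to 137697180 and from 137700522 to 137700660, whose midpoints stood at -2.88 and 0.591 kb from 137.7 Mb. A closer pair, with midpoints 0.463 kb apart, ran from 137667847 to 137668446, and this was the shortest distance in the region. Single peaks lay from 137656322 to 137656485, from 137685328 to 137685492 and from 137715377 to 137715521, and a pair 2.16 kb apart ran from 137741158 to 137743477. With a position known only to the nearest 0.1 Mb, the distances do not say which of these 9 peaks lies in Lad1, in another gene or between genes.

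Above the Lad1 band 8 further peaks reached up to 137910318. They comprised pairs 0.823 kb apart, from 137787738 to 137788704, and 0.886 kb apart, from 137838317 to 137839363. Single peaks lay from 137780028 to 137780155, from 137798996 to 137799161, from 137829702 to 137829854 and from 137910162 to 137910318. Beyond the last of them no peak was listed for 201.0 kb, and the peak just outside the region lay from 138111195 to 138111325, 111.3 kb above the limit. From first to last the region's peaks spanned 930.0 kb, with distances of up to 132.7 kb between neighbours. No peak was listed for 556.7 kb below this span and 201.0 kb above it.

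The fullest 350 kb of the region, starting at its peak from 137519875, held 21 of the 32 peaks (65.6%), and the fullest 250 kb, starting at 137587072, held 18. From any peak of chromosome 1 outside the region, 350 kb held at most 14 peaks and 250 kb at most 12. Over 100 kb the region held at most 9 peaks and the rest of the chromosome at most 8.

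As the choice of the region implies, its density was high: 24.6 peaks per Mb (95% Poisson interval 16.8 to 34.7), against 4.57 per Mb (4.27 to 4.88) on the rest of chromosome 1, a ratio of 5.39. When chromosome 1 was divided into 148 windows of 1.3 Mb starting from the region, none of the others reached its 32 peaks. The fullest of the others held 24 and the next 23, against a median of 5 (interquartile range 1 to 9), and 25 held none. With the window free to start at any peak, the fullest other window of this length, from 132.6 to 133.9 Mb, held 29 peaks. The count of the region was thus close to that of its nearest rival on the chromosome. Both windows were picked for high counts, so they were not tested against each other.

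**Figure D2:**
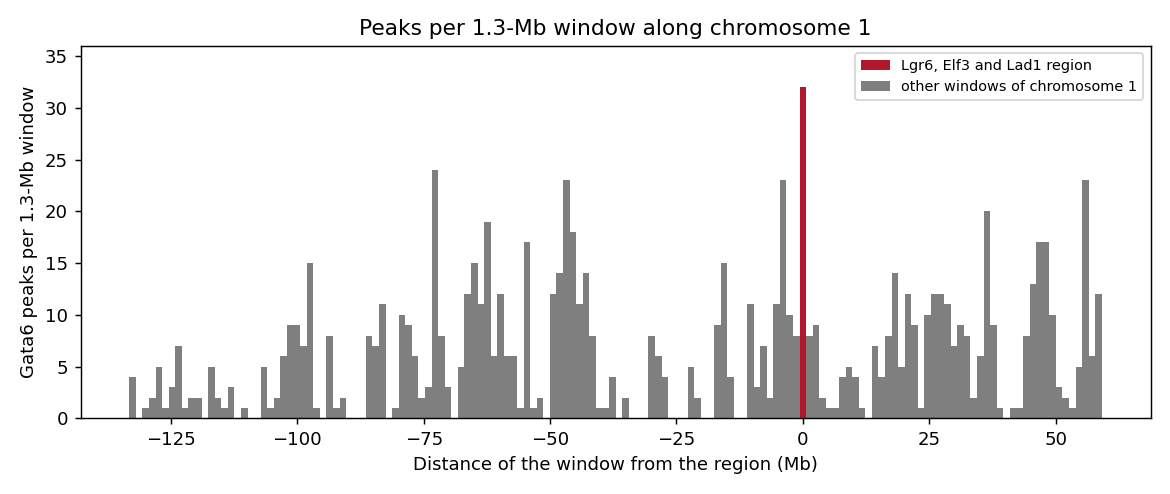
Gata6 peaks in each of 148 windows of 1.3 Mb along chromosome 1, placed by their distance in Mb from the Lgr6, Elf3 and Lad1 region, whose bar is red. The region has 32 peaks and the fullest other window 24.

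Close peaks came as pairs: each peak with a neighbour within 5 kb had a single such neighbour, and no group of 3 was found. There were 8 such pairs, so 16 of the 32 peaks (50%, 95% Wilson interval 33.6 to 66.4) had a neighbour within 5 kb, against 24.0% of the 879 peaks on the rest of chromosome 1. Within 1 kb the count was 8 of 32 (25%, 13.2 to 42.1), against 8.87%, and within 20 kb it was 23 of 32 (71.9%, 54.6 to 84.4), against 50.7%. The median distance between neighbours was 17.0 kb in the region (31 distances, from 0.463 to 132.7 kb), against 53.6 kb on the rest of the chromosome (877 distances). Of these 877 distances, 112 were within 5 kb and joined 211 peaks, so most close peaks there came as pairs too.

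Other dense windows gave the following counts of close peaks. In the fullest other 1.3-Mb window of chromosome 1, 2 of 29 peaks had a neighbour within 5 kb (6.90%, 95% Wilson interval 1.91 to 22.0) and 0 of 29 had one within 1 kb, a share whose Wilson interval reaches 11.7%. In the 2 fullest whole-Mb windows of the other chromosomes the counts within 5 kb were 23 of 39 (59.0%, 43.4 to 72.9) on chromosome 7 from 119 to 120 Mb and 13 of 32 (40.6%, 25.5 to 57.7) on chromosome 5 from 91 to 92 Mb. Within 1 kb they were 4 of 39 and 0 of 32. No difference between these windows was tested. The peaks of a pair count together, so the 16 peaks of the region stand for 8 pairs, and intervals that take each peak as a separate draw are too narrow.

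**Figure D3:**
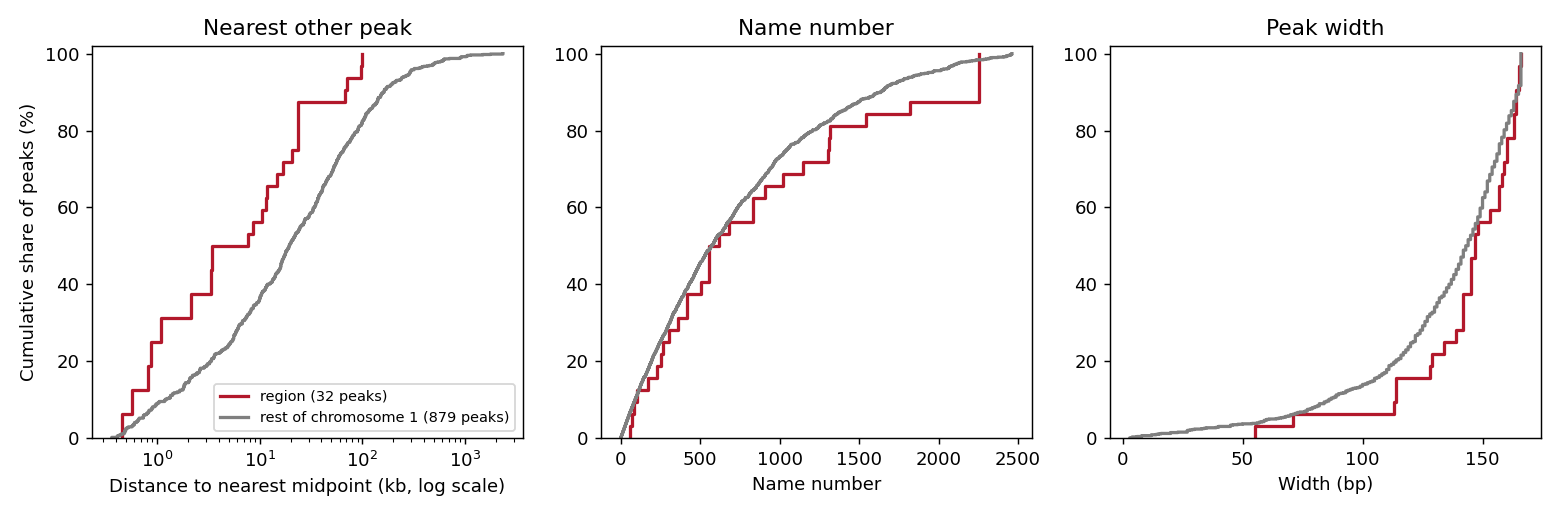
Cumulative share of peaks, in percent, by distance to the nearest other midpoint in kb on a log scale (left), by name number (middle) and by width in bp (right), for the 32 peaks of the region in red and the 879 of the rest of chromosome 1 in grey. The red curve is shifted to short distances, with 50% of peaks within 5 kb against 24.0%, while the curves of number and width run close together.

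Peaks are named by their chromosome and a whole number, here called the name number, whose highest value on chromosome 1 is 2462. No source used here says what it counts, so it is not read as strength. The median number was 587 in the region (95% interval from order statistics 360 to 1146), against 572 (518 to 633) on the rest of chromosome 1. Among the lowest 25% of the listed numbers of the chromosome were 6 of the 32 peaks (18.8%, 95% Wilson interval 8.89 to 35.3), against 25.1% of the rest. This difference was not tested.

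Numbers were mixed along the region. The lowest numbers were 62 (from 137667847), 73 (from 137787738), 85 (from 137798996), 104 (from 137685328) and 174 (from 137077593). Of these 5 peaks, 4 lay in the Lad1 band or above it, as did 17 of all 32 peaks, and 1 lay between Lgr6 and Elf3. The 17 peaks from the Lad1 band upwards had a median number of 417 and a range of 62 to 1317. The 8 peaks between the bands had a median of 925 (256 to 2257), and the 7 peaks up to the end of the Elf3 band had a median of 1308 (174 to 2253). The ranges overlap, and this division was described after the values were seen. Among the highest 25% of the numbers of the chromosome were 2 of the 17 peaks, 3 of the 8 and 5 of the 7, and among the lowest 25% were 5 of the 17, 0 of the 8 and 1 of the 7. At Elf3 the close pair had the numbers 1822 and 1542, and the peak in Lgr6 had 2253. These were among the highest numbers of the chromosome, at its 93.6, 88.3 and 98.1 percentiles. The other peaks of the Elf3 band, 270 and 1146, were at the 26.7 and 77.9 percentiles. The pair nearest to the Lad1 position, 360 and 417, was at the 34.4 and 38.75 percentiles. Whether numbers differ between the genes was not tested.

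Numbers above 2000 were held by 4 of the 32 peaks (12.5%), against 4.44% on the rest of chromosome 1. The cut at 2000 follows no rule given here, and this difference was not tested. It did not extend to the median number, which was 587 in the region and 572 on the rest of the chromosome. The 4 peaks above 2000 were 2253, 2255, 2256 and 2257, in rising order of position from Lgr6 to 137520034. Between 2253 and 2255 lay 7 peaks of lower number. When the listed peaks of the chromosome are sorted by number, positions run upwards in 70 series, and 23 of these have a member in the region. The 4 peaks belong to the last series, from 1937 to 2462, which has 48 listed peaks. Between 2253 and 2257 only the number 2254 occurs in no listed name, and its position would fall between 136.98 and 137.36 Mb if the numbers keep the order of positions there. In the same way 554, 555 and 556 were the peaks at 137588175, 137788563 and 137838317, 416 and 417 were those at 137668318 and 137700522, and 830 and 831 were those at 137587072 and 137743330. The region thus held 6 steps from a number to the next whole number. On chromosome 1 as a whole there were 523 such steps between listed peaks, of which 148 rose in position by no more than 1.3 Mb, so such runs are not particular to the region. In a further series, 1308, 1312 and 1317 lay at 137080973, 137656322 and 137910162, with 3 and 4 unlisted numbers between them.

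The peaks of a pair had unlike numbers in some pairs and near ones in others. The pair between Lgr6 and Elf3 had 174 and 1308, the closest pair below Lad1 had 62 and 416, and the pair at 137741158 had 230 and 831. The pair at 137787738 had 73 and 555, and the pair at 137587072 had 830 and 554. The pair nearest to the Lad1 position had 360 and 417, and the pair at 137838317 had 556 and 509, which are close to each other. The Elf3 pair had 1822 and 1542, at the 93.63 and 88.25 percentiles of the chromosome. Expressed as percentiles among the numbers of the chromosome, the peaks of a pair differed by a median of 23.7 points (3.18 to 64.3, 8 pairs), against 27.1 points over 112 such pairs on the rest of chromosome 1. The peak with the lower number was the wider in 6 of the 8 pairs, against 50% of the pairs elsewhere on the chromosome, and with 8 pairs this is a description only.

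**Figure D4:**
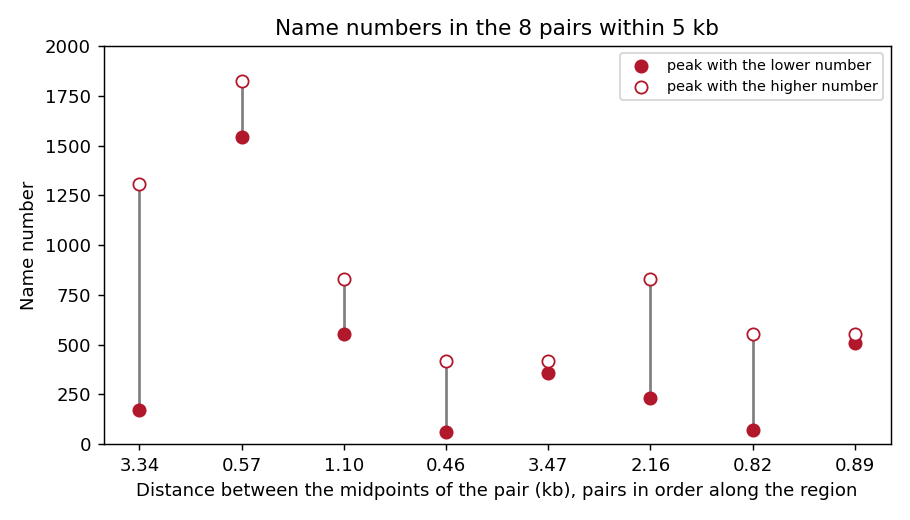
Name numbers of both peaks in the 8 pairs within 5 kb, in their order along the region, with the distance between midpoints in kb under each pair; filled points are the lower number and open points the higher. The pair between Lgr6 and Elf3, at the left, is the widest apart in number, with 174 and 1308, and the pair at the right the closest, with 509 and 556.

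Listed peaks of the region were 55 to 166 bp wide, with a median of 147 bp (95% interval 142 to 159), against a median of 143 bp (141 to 146) on the rest of chromosome 1. The narrowest ran from 137363695 to 137363749 (55 bp), in the stretch between Elf3 and Lad1. The widest ran from 137798996 to 137799161 (166 bp), which is also the largest width in the whole list. That width was reached by 1 of the 32 peaks and by 8.30% of the rest. Widths of 83 bp or less were found in 2 of the 32 peaks (6.25%, 95% Wilson interval 1.73 to 20.1), against 8.99%, namely the narrowest peak and the 71-bp peak of the pair between Lgr6 and Elf3. The Elf3 pair was 134 and 142 bp wide and the Lgr6 peak 114 bp. In the Lad1 band widths were 114 to 165 bp with a median of 145 bp. Peaks with a neighbour within 5 kb had a median width of 145 bp and a median number of 531.5, and those without had 157.5 bp and 963. Both groups held 16 peaks, and their ranges overlapped in width and in number. The rest of chromosome 1 was not split in this way, so whether the difference is particular to the region is not known. A width here is that of a listed overlap interval, not of a whole binding site.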

How the data were processed

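ChIP-seq of Gata6 in keratinocytes gave 1 deposited peak list for the series. Per the submitters' processing notes, BWA, HOMER and build mm9 were used, with neither version nor role named. How the overlap was made, how peaks were called and what part the control libraries played are steps not given in the sources used here. The extract protocol names complexes of truncated Lef1 as the precipitated material, but Gata6 or Flag is named by title and antibody label, which decided the groups. The score that the authors deposited is 0 in each row, so it holds no strength. Starts and ends deposited by the authors were read as mm9 and are given 1-based.

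Members, gene list and summaries were chosen with earlier results of these data known. Peaks were assigned by midpoint, and density on the rest of the chromosome used the distance between its outermost peaks less the region. Gene positions are the rounded ones of the rule that defined the region. Named were the peaks nearest to each gene, the 5 lowest numbers, all pairs within 5 kb, the widest, the narrowest and those at the limits; the other members, given for completeness, follow no rule. No test was run: the list has no replicate values, so results are counts, shares with 95% Wilson intervals, exact Poisson intervals and medians with order-statistic intervals, which cover counting error only. Counts of neighbours and the median interval were tested on simulated data. Python 3.11.15, NumPy 2.4.6, pandas 2.3.3, SciPy 1.17.1 and matplotlib 3.10.9 were used. Promoter windows came from RefSeq, build GRCm38.p6, matched by symbol for all 3 genes.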

Additional observations from a re-analysis of the deposited data

How the results depend on the processing

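Of 24 alternative values, 19 stayed within the counting interval of the reported one, and 22 of the 23 with a value for the rest of chromosome 1 kept the side on which the region lay. The exception was the median name number, which was 556 in the 1-Mb window from 137.0 Mb, against 573 on the rest of the chromosome. For density and the share with a neighbour the side followed from the choice of the region, so keeping it there says nothing of stability. The density was 21.5 to 31.0 per Mb in the 1-Mb window, from the start of Lgr6 to the end of the Lad1 band, without peaks of 83 bp or less, and with midpoints within 1 kb merged. With only numbers up to the median of each chromosome, which keeps fewer peaks by construction, the density was 12.3 per Mb, the median number 287.5 and the share among the lowest 25% of numbers 37.5%. On the rest of the chromosome these values were then 2.29 per Mb, 249.5 and 50.2%. The share with a neighbour was 25% within 1 kb and 71.9% within 20 kb, by construction below and above that within 5 kb. With GATAA in place of AGATAA the motif was still found for Lad1 alone. No paired analysis was possible because the list holds no values per replicate, and no library could be left out for the same reason. Read depth limits which sites reached the list, and its effect could not be measured.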

Other observations

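The neighbouring genes of the locus were searched for the same motif. Of the 16 protein-coding genes between and beside Lgr6, Elf3 and Lad1, 15 had promoter windows in the RefSeq table, 21 in all. AGATAA or TTATCT stood in 1 of these windows, at Tnnt2, which encodes cardiac troponin T and follows Lad1 in gene order, against 11.2% of all promoter windows. The first bases of its TTATC matches lay at -245 and -166 from the gene's start. The shorter GATAA or TTATC stood in 2 of the 21 windows, at Tnnt2 and at Timm17a, which encodes a subunit of a mitochondrial import complex, against 25.4% of all windows. Another promoter window of Tnnt2 held neither, though it held the bare letters GATA on 1 of its strands. The bare letters also stood in some windows of other neighbours, but not in all, and no share over all windows is given for them. A window of 300 bases without these letters says nothing of the sequence beyond it.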
